A study of Mus musculus with 37 samples.

Results

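The genes described are 9 of the 18194 genes with a named probe set on the arrays: the matrix metalloproteinases Mmp2, Mmp3, Mmp9, Mmp13 and Mmp14, and the tissue inhibitors of metalloproteinases Timp1, Timp2, Timp3 and Timp4. They were chosen by name, and every probe set annotated to 1 of them alone was taken, 22 in all. RNA was measured on 37 arrays of mouse primary astrocytes, grown from newborn pups and stably transfected with a pcDNA3.1-hygro plasmid, either holding Cdca7l or empty (vector). The Cdca7l plasmid groups were 129S4/SvJae (129) males (n = 5), 129 females (n = 4), C57BL/6J (B6) males (n = 5) and B6 females (n = 4), and the vector groups were 129 males (n = 5), 129 females (n = 4), B6 males (n = 5) and B6 females (n = 5). Each array is labelled as a clone, such as 3(1), and 15 clone labels appear with both plasmids. The labels do not say whether the leading number or the number in brackets stands for an animal, an isolate or a passage. The design text calls the cultures separate isolates. The p-values of the main fit measure the spread between the arrays of a group, and both arrays of a shared label enter it as separate ones.

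Metalloproteinases are zinc-dependent enzymes that are made as inactive precursors and cut the proteins of the extracellular matrix once the propeptide is removed. Mmp2 and Mmp9 are gelatinases, Mmp3 is a stromelysin with many substrates, Mmp13 is a collagenase, and Mmp14 is anchored in the cell membrane and activates the Mmp2 precursor together with Timp2. The 4 TIMPs are secreted proteins that block the active site, and Timp3 binds to the matrix itself. In the brain these enzymes act on the perivascular basement membrane and the perineuronal matrix, and astrocytes are a known source of Timp1 after injury and under inflammatory cytokines.

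Mmp3 and Mmp13 lie in a run of 10 neighbouring metalloproteinase genes on chromosome 9, in the order Mmp13, Mmp12, Mmp1b, Mmp3, Mmp1a, Mmp10, Mmp8, Mmp27, Mmp20 and Mmp7 in GRCm38.p6. Their promoters are shown because their highest levels fell on the same 4 arrays, as described below. The sequences are from RefSeq (GRCm38.p6) and run from 250 bases before to 50 bases after the start of each gene. The Mmp3 window is chr9:7445572-7445871 and the Mmp13 window chr9:7272264-7272563, both on the + strand, written 5′ to 3′. Capitals mark an AP-1 site (TGAGTCA, or TGACTCA where it is read on the other strand) and the letters TATAAA of a TATA box.
Mmp3: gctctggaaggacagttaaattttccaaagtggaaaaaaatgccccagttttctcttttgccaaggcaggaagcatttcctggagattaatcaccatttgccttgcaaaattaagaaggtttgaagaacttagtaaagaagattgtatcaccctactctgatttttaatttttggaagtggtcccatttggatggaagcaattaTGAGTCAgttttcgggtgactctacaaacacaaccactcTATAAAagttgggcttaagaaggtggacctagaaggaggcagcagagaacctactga
Mmp13: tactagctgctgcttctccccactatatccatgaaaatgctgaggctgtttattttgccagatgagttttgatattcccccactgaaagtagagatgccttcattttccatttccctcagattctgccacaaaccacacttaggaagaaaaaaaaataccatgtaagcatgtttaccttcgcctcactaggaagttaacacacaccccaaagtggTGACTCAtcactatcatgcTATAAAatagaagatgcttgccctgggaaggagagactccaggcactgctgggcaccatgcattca
Of the 9 genes, 7 had a promoter in the table: Mmp3, Mmp13, Mmp14, Timp1, Timp2, Timp3 and Timp4. Searched on both strands, TGAGTCA and TATAAA each occurred in 2 of these 7 windows, those of Mmp3 and Mmp13. Timp2 1454677_at and Timp3 1419089_at were also highest on those 4 arrays, and the windows of Timp2 and Timp3, not shown, held neither. Among all 32851 promoter windows of this length, 5.2% held TGAGTCA and 13.6% held TATAAA. The AP-1 letters begin 46 bases before the start of Mmp3 and 35 bases before that of Mmp13. A match gives the letters in the window and no more.

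Levels are log2 values after GCRMA normalisation, and a probe set whose value was at or below the table's median of 3.19 was taken as not above background. Of the 22 probe sets, 20 exceeded that level on at least 4 arrays and were tested, and both probe sets of Mmp9 did not. Levels of different probe sets are not set against each other. On every one of the 37 arrays the representative probe sets of Mmp2, Mmp3, Mmp14, Timp1, Timp2, Timp3 and Timp4, those with the highest mean, were above background. Mmp13 was above background on 11 of 37 arrays, and Mmp9 on 2 of 37. For each of the 9 genes the groups were ranked by mean level, and the ranges of neighbouring groups in that order overlapped at every step.

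**Figure D1:**
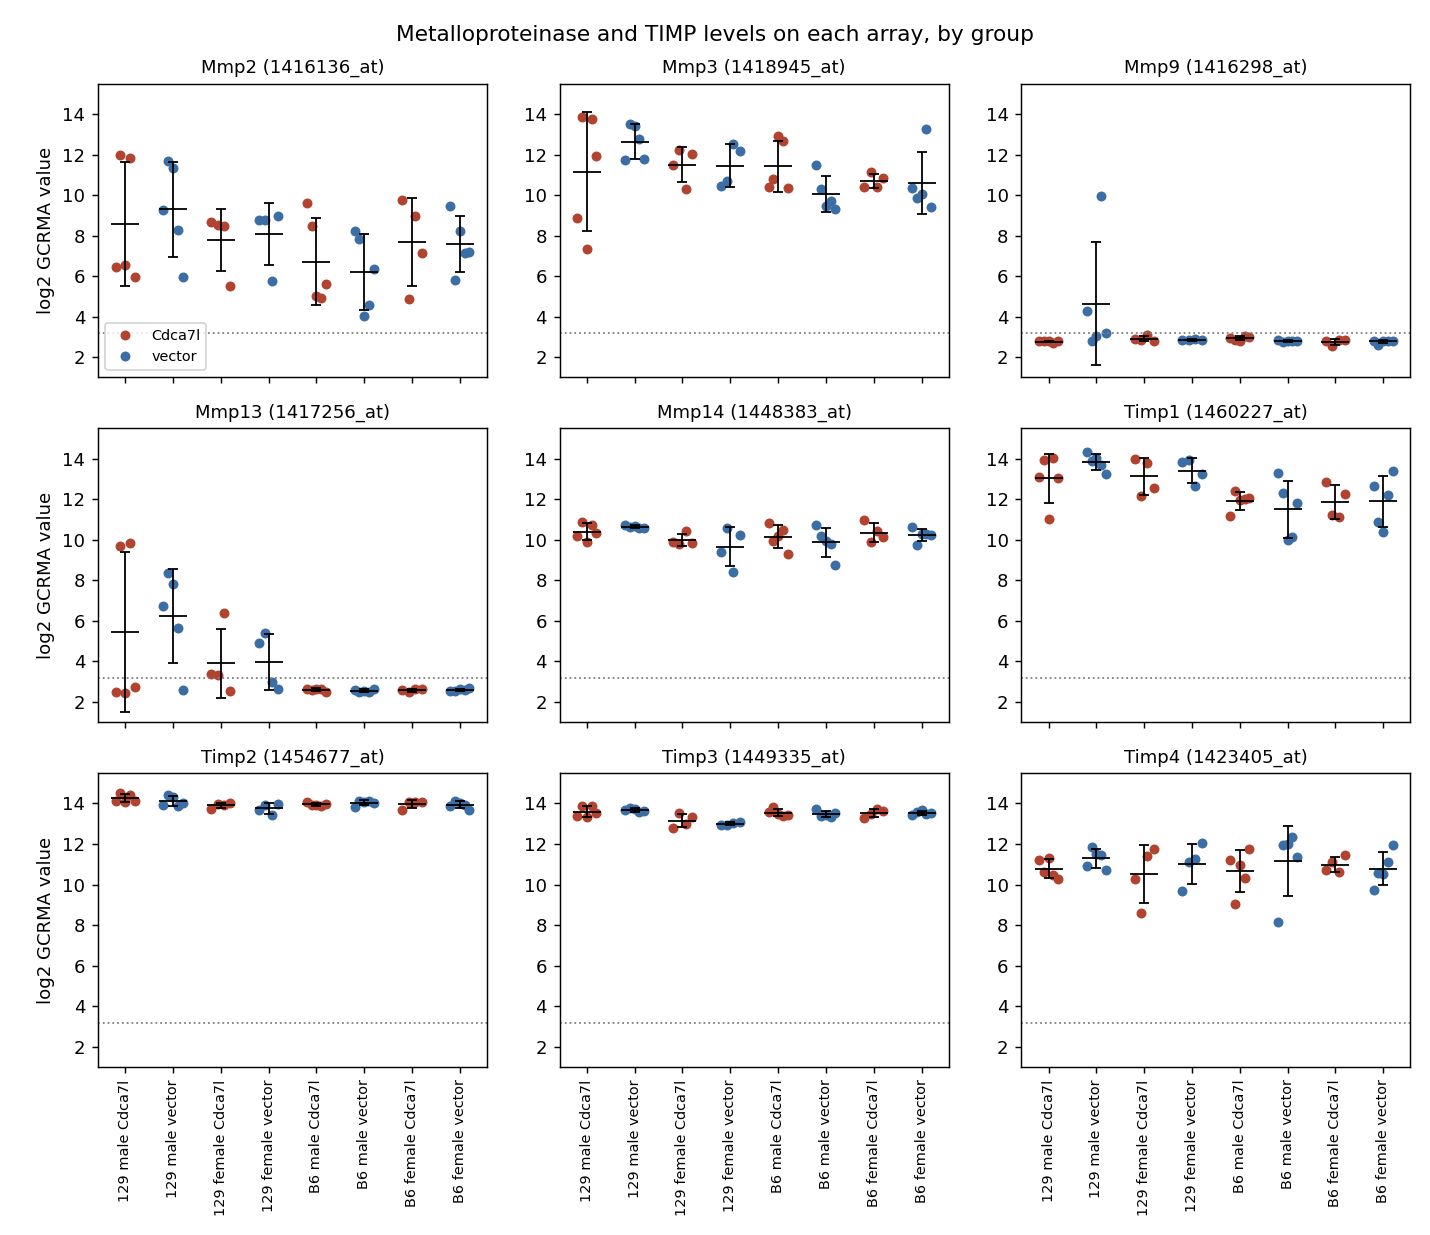
Log2 GCRMA value of the representative probe set of each gene on each of the 37 arrays (points), by strain, sex and plasmid (x axis), with group means and SD (black bars, n = 4 or 5) and the background level of 3.19 (dotted line). Mmp13 exceeds background on 129 arrays alone, 11 of 18 against 0 of 19 B6 arrays, and Timp1 group means are 13.04 to 13.84 in 129 cells and 11.51 to 11.92 in B6 cells.

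The astrocyte genes Gfap, Aqp4, Slc1a3, Aldh1l1, Gja1, Aldoc and Fgfr3 were above background on all 37 arrays, Slc1a2 on 36, S100b on 13 and Gjb6 on 3. Of 12 microglia and macrophage markers, Cd68 and Fcer1g were above background on all 37, C1qb on 18, Tyrobp on 12, Csf1r on 11, Ptprc on 9, C1qc on 4, and C1qa and Aif1 on 3 each. The microglial genes Cx3cr1, Itgam and Trem2 were above it on none. Fibroblast and meningeal markers (10 genes) had a mean level of 11.27 to 11.40 on 4 arrays, those of 129 male clones 3(1) and 5(1) with either plasmid, and of 4.85 to 8.29 on the other 33. On those 4 arrays Dcn lay at 14.06 to 14.30 and Lum at 9.12 to 9.87, against highs of 8.84 and 2.93 elsewhere. Fap was above background on 1 of the 4, and Col1a1 and Twist1 overlapped the other arrays, which reached 13.77 and 12.26. Astrocyte markers stayed at a mean of 9.73 to 10.62 there. Col1a1, Col1a2, Twist1 and Prrx1 were above background on all 37 arrays. So were the pericyte and smooth muscle markers Acta2, Tagln and Pdgfrb, with Rgs5 on 29, Cspg4 on 1 and Des, Abcc9 and Kcnj8 on none. Against its label, B6 female vector 5.1(1) had Xist at 2.40 and the Y-linked Eif2s3y at 11.91. Cdca7l itself lay at 10.15 to 14.42 on the arrays with its plasmid and at 4.12 to 10.43 on those with vector. The upper quartile of all values was 8.36 on 129 female vector 1(3) and 9.03 to 9.51 on the rest. All arrays stayed in the fit, and strain and sex calls that rest on the 4 arrays of 129 male clones 3(1) and 5(1) are given with and without them. The SDs between clones and the correlations between genes are given with these arrays alone. In RNA from a whole culture, fewer cells of a type and less RNA per cell cannot be told apart.

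Cdca7l had no detected effect on any metalloproteinase or TIMP. Averaged over the 4 strain and sex groups, 0 of the 20 probe sets passed at an adjusted p under 0.05, 10 were higher with the plasmid and 10 lower, and none had an unadjusted p under 0.05 (limma, Benjamini-Hochberg over 25579 probe sets). In that comparison 0.00782% of all tested probe sets were called, and the median difference was 0.00 for the 20 and 0.02 over all tested probe sets. The smallest p belonged to Timp2 1460287_at, which averaged 12.69 with Cdca7l and 12.92 with vector, a difference of -0.24 ± 0.188 (SE, log2) with adjusted p = 0.999. Timp4, a TIMP found mainly in heart and brain, followed at 10.73 with Cdca7l and 11.06 with vector, a difference of -0.33 ± 0.329 with adjusted p = 0.999. The 95% intervals set how large an effect could have been missed: -1.47 to 1.28 for Mmp2, -0.95 to 0.97 for Mmp3 and -0.81 to 0.46 for Timp1. They were narrower for Timp2 1454677_at, -0.08 to 0.21, and for Timp3 1449335_at, -0.11 to 0.17.

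The same held within each group. In 129 males 0 of 20 probe sets passed, with 0% of all probe sets called (422 at an unadjusted p under 0.05), and 3 of the 20 were higher with Cdca7l, with a median of -0.27 against -0.02 over all probe sets. Mmp3 averaged 11.15 with Cdca7l and 12.63 with vector there, a difference of -1.48 ± 0.898 (95% interval -3.32 to 0.35), and Timp3 1449334_at averaged 12.46 with Cdca7l and 12.84 with vector, a difference of -0.38 ± 0.257. In 129 females 0 of 20 passed (0% of all called, 503 unadjusted), with 12 higher, and the smallest p-values were those of Timp2 1450040_at at 0.60 ± 0.353 and Mmp14 1440920_at at 1.12 ± 0.726. In B6 males 0 of 20 passed (0% of all called, 538 unadjusted), with 9 higher, led by Mmp3 at 1.36 ± 0.898 and Timp3 1419088_at at 0.32 ± 0.32. In B6 females 0 of 20 passed (0% of all called, 142 unadjusted), with 9 higher, led by Timp2 1420924_at at 1.32 ± 0.893 and Timp2 1437081_at at 0.90 ± 0.765. No group had a member probe set at an unadjusted p under 0.05.

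Nor did the Cdca7l effect on these genes differ detectably by sex or strain. Male minus female, 0 of 20 probe sets passed and 0% of all probe sets were called (184 unadjusted), with the smallest p-values for Timp4 1450974_at at -1.11 ± 1.04 and Mmp14 1440920_at at -0.67 ± 0.68. For 129 minus B6, 0 of 20 passed and 0% were called (429 unadjusted), with Mmp3 at -1.47 ± 0.939 and Timp1 at -0.74 ± 0.624 nearest to the threshold.

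Mmp3 shows how the plasmid difference varied from clone to clone. In B6 males Mmp3 was 12.90 (clone 5.6(1)), 12.68 (2(2)), 10.78 (4(3)), 10.40 (5(3)) and 10.35 (3(5)) with Cdca7l, against 11.47 (4(3)), 10.30 (2(4)), 9.71 (2(2)), 9.48 (5.6(1)) and 9.33 (3(5)) with vector. Clones 5.6(1) and 2(2) were high with Cdca7l and low with vector. The same 2 clones had Timp1 at 11.98 and 12.01 with Cdca7l and at 9.99 and 10.15 with vector, while clone 4(3) had 12.40 with Cdca7l and 13.29 with vector. In 129 males Mmp3 was 13.86, 13.74, 11.93, 8.87 and 7.35 with Cdca7l, against 13.51, 13.43, 12.76, 11.78 and 11.71 with vector. Both low values with Cdca7l, of clones 3(3) and 1(4), lay below every vector array, and the other 3 lay inside or above the vector range.

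Over the 15 clone labels found with both plasmids, the Cdca7l array was the higher one in 7 pairs for Mmp2, 11 for Mmp3, 10 for Mmp13, 10 for Mmp14 and 8 for Timp1. For Timp2, Timp3 and Timp4 it was the higher one in 9 pairs each. The median paired differences ran from -0.02 for Mmp2 to 0.32 for Mmp3. For Mmp2 the SD within a clone label was 0.628, and that between clone means of 1 strain and sex was 2.16, which is 3.44 times as large. For Mmp13 these SDs were 0.961 within and 1.82 between clones, and for Timp2 1437081_at 0.487 and 1.05. For Mmp3, at 1.06 and 1.02, and for Timp4, at 0.879 and 0.869, the 2 SDs were near each other. The SDs are not directly comparable. The one within is for single arrays and includes any plasmid difference. The one between is for means of 2 arrays and holds part of the spread within.

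**Figure D2:**
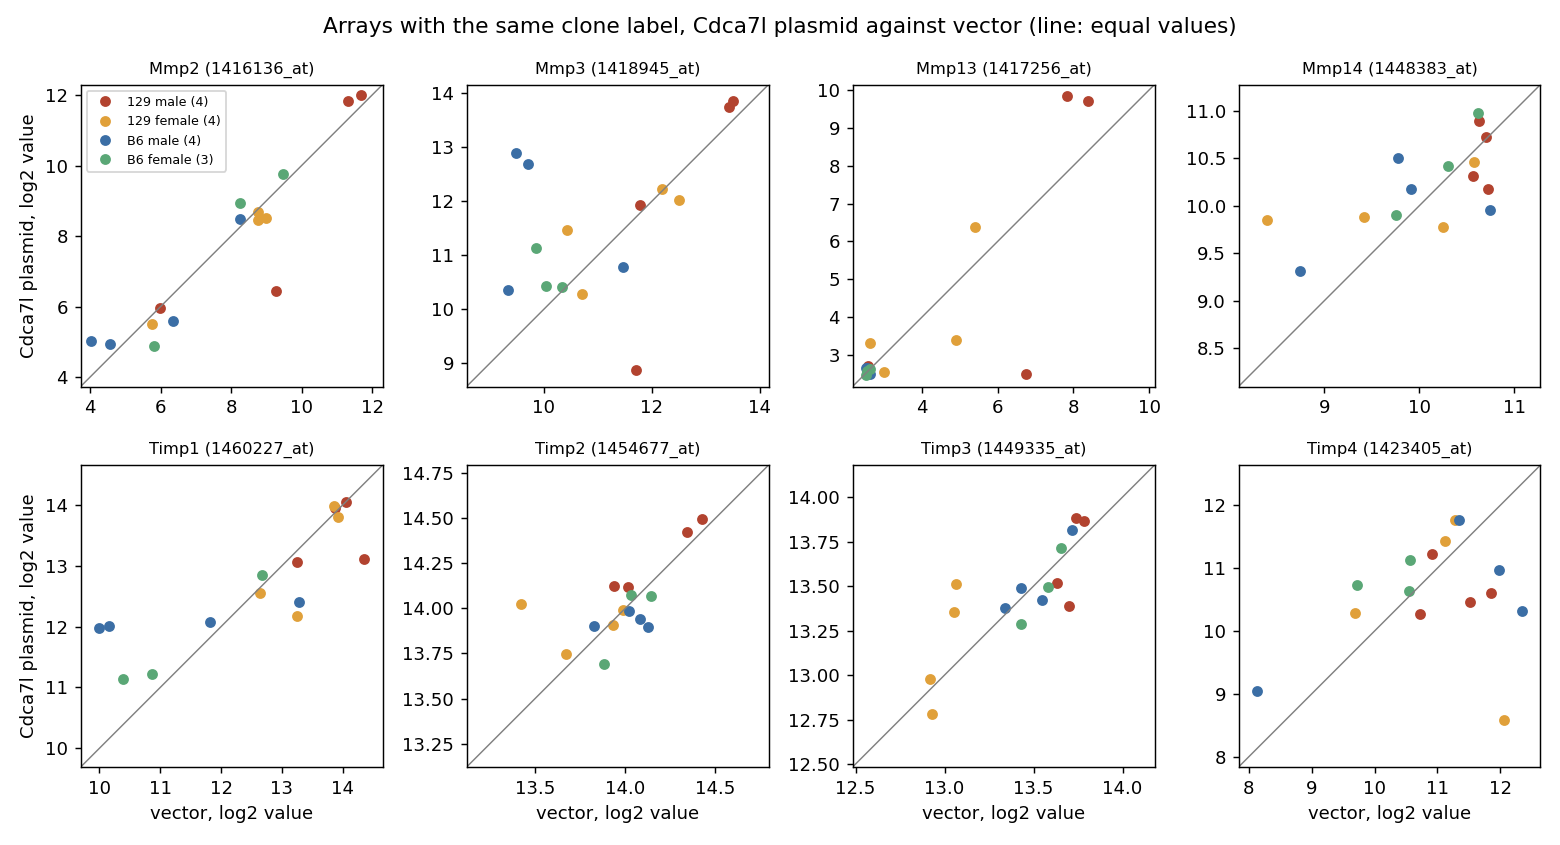
Log2 value with the Cdca7l plasmid (y axis) against that with vector (x axis) for the 15 clone labels present with both, coloured by strain and sex with the number of pairs in brackets, for the representative probe set of 8 genes; the line marks equal values. Mmp2 runs from 4.03 to 12.001 and its pairs differ by a median of -0.02, with 129 male clone 3(3) farthest below the line at -2.82, while Mmp3 differences run from -2.84 to 3.41.

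Mmp2, a gelatinase, had the largest SD between clones of the 8 representative probe sets compared. In 129 males it was 12.001 (clone 3(1)), 11.84 (5(1)), 6.57 (1(4)), 6.45 (3(3)) and 5.96 (3(2)) with Cdca7l, against 11.68 (3(1)), 11.33 (5(1)), 9.27 (3(3)), 8.27 (5(2)) and 5.98 (3(2)) with vector. In 129 females it was 8.67 (4(1)), 8.52 (2(3)), 8.47 (2(1)) and 5.49 (1(3)) with Cdca7l, against 8.99 (2(3)), 8.76 (4(1)), 8.75 (2(1)) and 5.76 (1(3)) with vector. Clone 1(3) was low with both plasmids, and clones 3(1) and 5(1) of the males were high with both. In B6 males it was 9.59 (5(3)), 8.48 (4(3)), 5.60 (3(5)), 5.01 (5.6(1)) and 4.92 (2(2)) with Cdca7l, against 8.25 (4(3)), 7.82 (2(4)), 6.35 (3(5)), 4.55 (2(2)) and 4.03 (5.6(1)) with vector. In B6 females it was 9.75 (6(3)), 8.95 (3(3)), 7.16 (1(4)) and 4.87 (4(5)) with Cdca7l, against 9.48 (6(3)), 8.25 (3(3)), 7.20 (2.1(1)), 7.15 (5.1(1)) and 5.80 (4(5)) with vector. Clones 6(3), 3(3) and 4(5) kept the same order with both plasmids in B6 females. Neither Mmp2 probe set passed a strain or sex comparison.

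Strain was the comparison in which the collagenase Mmp13 and the inhibitor Timp1 stood higher in 129 cells. Averaged over sex and plasmid, 5 of the 20 probe sets passed, 3 higher and 2 lower in 129, beside 25.2% of all tested probe sets called. The members' share is near that of the array as a whole, and their median difference was -0.02 beside 0.00 over all probe sets. The groups of no called probe set stood apart without overlap. Because Cdca7l and vector arrays of 1 clone enter as separate arrays, the same fits were run with the clone label as a random block. Under it 5 of the 20 passed, beside 16.6% of all probe sets. With the leading clone number as the block 2 of the 20 passed, Timp1 and Mmp14 1440920_at, beside 10.1% of all probe sets.

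Timp1, the inducible inhibitor of the family and an X-linked gene, was higher in 129. In 129 males it was 14.06, 13.94, 13.11, 13.07 and 11.05 with Cdca7l and 14.36, 14.06, 13.88, 13.67 and 13.25 with vector, against 12.40, 12.07, 12.01, 11.98 and 11.16 with Cdca7l and 13.29, 12.29, 11.82, 10.15 and 9.99 with vector in B6 males. In 129 females it was 13.98, 13.80, 12.55 and 12.18 with Cdca7l and 13.92, 13.86, 13.25 and 12.64 with vector, against 12.86, 12.25, 11.23 and 11.15 with Cdca7l and 13.39, 12.67, 12.19, 10.87 and 10.39 with vector in B6 females. The median was 13.73 in 129 and 12.01 in B6, and the strains overlapped between 11.05, in 129 male clone 1(4), and 13.39. Timp1 averaged 13.36 in 129 and 11.80 in B6, a difference of 1.56 ± 0.312 (SE, log2), 2.94-fold, with adjusted p = 0.00052 (limma). It was 1.38 with adjusted p = 0.0064 without 129 male clones 3(1) and 5(1), and 1.47 with adjusted p = 0.0045 under the clone block. It was 1.43 with adjusted p = 0.014 with the leading clone number as the block.

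In males alone Timp1 averaged 13.44 in 129 and 11.72 in B6, a difference of 1.73 ± 0.422 with adjusted p = 0.0070, and in females alone 13.27 in 129 and 11.89 in B6, a difference of 1.39 ± 0.46 with adjusted p = 0.036. Without 129 male clones 3(1) and 5(1) the difference in males was 1.37 with adjusted p = 0.15. Under the clone block the female difference was 1.29 with adjusted p = 0.11. Neither passed with the leading clone number as the block, at 1.56 (adjusted p = 0.15) in males and 1.31 (adjusted p = 0.13) in females. Timp1 was not shown to differ between the sexes: male minus female it lay at 0.17 in 129, and the sex by strain term was 0.34 ± 0.624.

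Mmp13 was above background in 129 cells alone. In 129 males it was 9.84 (clone 5(1)), 9.69 (3(1)), 2.72 (3(2)), 2.50 (3(3)) and 2.44 (1(4)) with Cdca7l, and 8.38 (3(1)), 7.84 (5(1)), 6.75 (3(3)), 5.62 (5(2)) and 2.58 (3(2)) with vector. In 129 females it was 6.38 (2(1)), 3.40 (4(1)), 3.30 (2(3)) and 2.54 (1(3)) with Cdca7l, and 5.39 (2(1)), 4.89 (4(1)), 2.99 (1(3)) and 2.64 (2(3)) with vector. On the 19 B6 arrays it ran from 2.47 to 2.67, with a median of 2.60. So 11 of 18 arrays exceeded background in 129 and 0 of 19 in B6, and clones 3(1), 5(1), 2(1) and 4(1) exceeded it with both plasmids. Mmp13 averaged 4.89 in 129 and 2.58 in B6, at least 3.25-fold higher in 129, with a measured difference of 2.31 ± 0.589 and adjusted p = 0.0050. The bound sets the 129 mean against the B6 arrays raised to the background level, with 129 values below background kept as measured. Mmp13 entered the tested set through 129 arrays alone, so its strain tests are not support separate from that filter. Without 129 male clones 3(1) and 5(1) the measured difference was 1.27 with adjusted p = 0.011, and under the clone block it was 2.24 with adjusted p = 0.016. It did not pass with the leading clone number as the block, at 2.20 with adjusted p = 0.075.

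In males alone 3 of 20 probe sets were higher in 129 and none lower, beside 10.5% of all probe sets called. Mmp13 averaged 5.84 in 129 males and 2.58 in B6 males, at least 6.27-fold higher with adjusted p = 0.0072, and the others were Timp1 and Timp3 1419089_at. Without clones 3(1) and 5(1), 0 of 20 passed, beside 3.57% of all probe sets, and Mmp13 lay at 1.18 with adjusted p = 0.24. Timp3 1419089_at averaged 13.30 in 129 males and 12.92 in B6 males, a difference of 0.39 ± 0.107 with adjusted p = 0.018, and it lay at 0.37 with adjusted p = 0.070 under the clone block. With the leading clone number as the block 0 of 20 passed, with Mmp13 at 3.13 (adjusted p = 0.17) and Timp3 1419089_at at 0.35 (adjusted p = 0.24). In females Mmp13 averaged 3.94 in 129 and 2.58 in B6, a difference of 1.36 ± 0.869 with adjusted p = 0.28.

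The 4 arrays of 129 male clones 3(1) and 5(1) held the highest level of 3 metalloproteinases at once. Mmp2 was 11.33 to 12.001 there, against 4.03 to 9.75 on the other 33 arrays. Mmp3 was 13.43 to 13.86, against 7.35 to 13.26. Mmp13 was 7.84 to 9.84, against 2.44 to 6.75. The highest level of Timp2 1454677_at was also there, 14.34 to 14.50 against 13.42 to 14.14, as was that of Timp3 1419089_at, 13.43 to 13.68 against 12.04 to 13.38. The other Timp3 probe sets overlapped the remaining arrays. Of these, 1449335_at, with the highest mean, lay at 13.74 to 13.88 against a high of 13.815. Timp2 1450040_at and 1460287_at overlapped them too. Timp1, at 13.88 to 14.06, and Timp4, at 10.45 to 11.86, lay inside the range of the other arrays, which reached 14.36 and 12.34. These are the arrays on which fibroblast and meningeal markers were highest, and the part of those cells in the metalloproteinase levels was not tested.

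**Figure D3:**
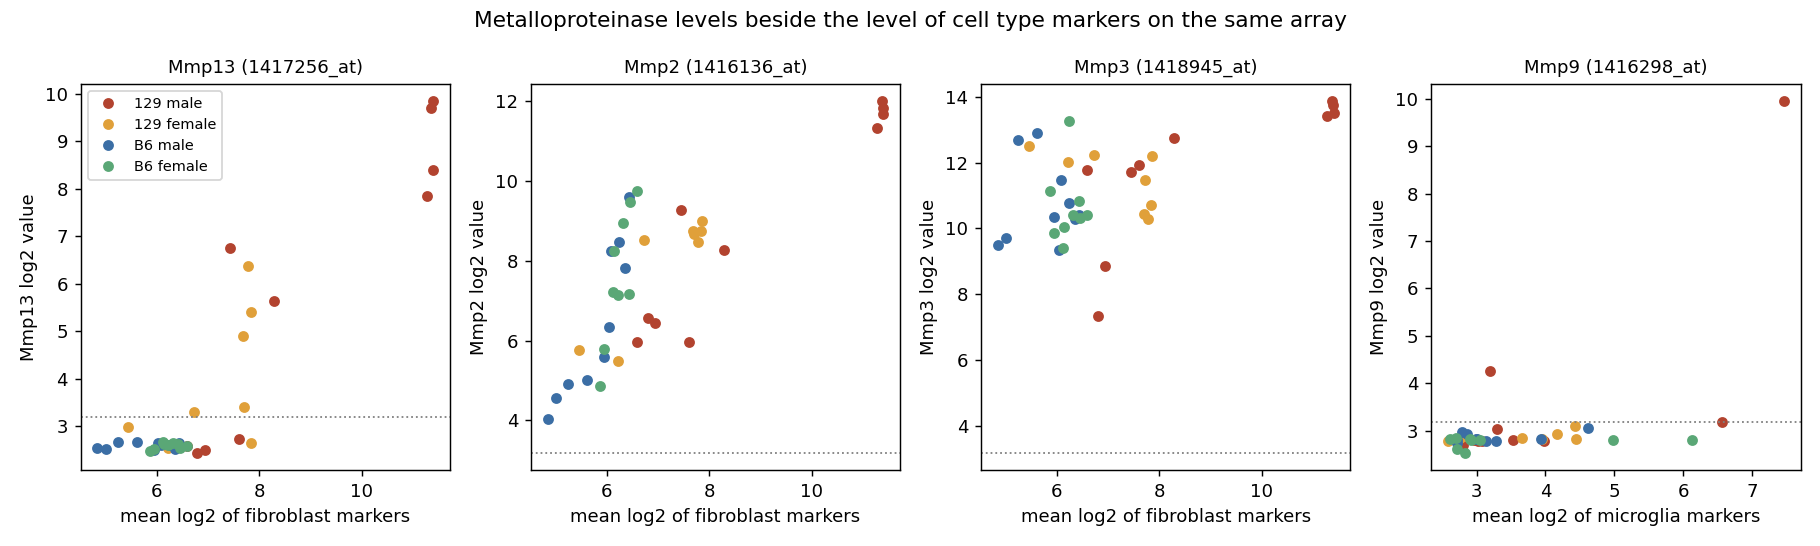
Log2 value of Mmp13, Mmp2, Mmp3 and Mmp9 (y axis) against the mean log2 level of fibroblast and meningeal markers (first 3 panels, 10 genes) or of microglia and macrophage markers (last panel, 12 genes) on the same array (x axis), coloured by strain and sex; the dotted line is the background level of 3.19. The 4 arrays at 11.27 to 11.40 are 129 male clones 3(1) and 5(1), and Mmp9 reaches 9.95 on the array with the highest microglial marker level, 7.46.

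Mmp9, the second gelatinase, was at background on nearly all arrays. In 129 males its probe set 1416298_at was 2.69 to 2.80 with Cdca7l, against 9.95 (clone 5(2)), 4.26 (3(3)), 3.17 (3(2)), 3.03 (5(1)) and 2.80 (3(1)) with vector. In the other 6 groups it ran from 2.54 to 3.09. Clone 5(2) stood alone, and its second probe set, 1448291_at, gave the same picture, with 5.67 on that array and 1.69 to 1.83 on the others. That array had the highest mean level of 12 microglia and macrophage markers, 7.46, where the next were 6.56 on 129 male vector 3(2) and 6.13 on the array labelled B6 female vector 5.1(1). Mmp9 was 3.17 and 2.81 on those. The part of macrophages in the Mmp9 value was not tested.

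Mmp14, the membrane enzyme, was lower in 129 than in B6 by 1 of its 3 probe sets, 1440920_at. In 129 males it was 8.81, 8.002, 7.76, 7.02 and 5.97 with Cdca7l and 8.50, 8.15, 7.97, 7.75 and 7.62 with vector. In 129 females it was 6.96, 6.79, 4.85 and 4.69 with Cdca7l and 7.77, 4.32, 4.31 and 2.39 with vector. The B6 arrays ran from 7.66 to 8.70 in males, with a median of 8.25, and from 6.51 to 9.31 in females, with a median of 7.79. The 129 females were the low group, with 5 of 8 arrays below the lowest B6 array. Averaged over sex, 1440920_at was 6.51 in 129 and 8.02 in B6, a difference of -1.51 ± 0.34 with adjusted p = 0.0017 (limma).

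In females it averaged 5.26 in 129 and 7.86 in B6, a difference of -2.60 ± 0.501, 6.04-fold, with adjusted p = 0.00067. In males 129 minus B6 did not pass. The probe set with the highest mean, 1448383_at, did not pass in any comparison, with group means of 9.66 to 10.64. The 3 probe sets of Mmp14 gave different sizes for the same gene, and which transcripts each one reads is not given in the files.

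The inhibitors Timp2 and Timp3 were lower in 129 females than in B6 females by 2 of 6 and 2 of 4 probe sets. In that comparison 6 of the 20 member probe sets passed, 1 higher (Timp1) and 5 lower in 129, beside 17.6% of all probe sets. The median over the 20 was -0.40 beside -0.05 over all probe sets. Beside Mmp14 1440920_at, the lower ones were Timp2 1433662_s_at and 1450040_at and Timp3 1449335_at and 1419089_at. Astrocyte markers also lay lower in 129 females, with 3 of 9 tested markers past the threshold and a median of -1.11. Their mean level was 7.75 to 11.41 in 129 females and 9.75 to 11.29 in B6 females. Of 5 tested ependymal and choroid plexus markers, 3 passed as lower and 1 was higher without passing, with a median of -2.33. The part of these cells in the differences was not tested.

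Timp3 is the matrix-bound inhibitor. Its probe set 1449335_at was 13.51, 13.36, 12.98 and 12.78 with Cdca7l and 13.06, 13.05, 12.93 and 12.92 with vector in 129 females. In B6 females it was 13.71, 13.63, 13.49 and 13.29 with Cdca7l and 13.65, 13.58, 13.54, 13.49 and 13.43 with vector. All 4 vector arrays of 129 females lay below all 9 B6 arrays, and 2 Cdca7l arrays, of clones 2(3) and 1(3), lay among them. It averaged 13.07 in 129 females and 13.54 in B6 females, a difference of -0.46 ± 0.105 with adjusted p = 0.0033, and 1419089_at gave -0.41 ± 0.117 with adjusted p = 0.016. After centring each array on its upper quartile these differences were -0.26 (adjusted p = 0.19) and -0.21 (adjusted p = 0.23), a scaling that moved every difference in this comparison, and so the median of all probe sets, by 0.20. With the leading clone number as the block 1449335_at lay at -0.47 with adjusted p = 0.023 and 1419089_at at -0.44 with adjusted p = 0.055.

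For Timp2, which both inhibits Mmp2 and takes part in its activation, 6 probe sets were tested and they went different ways. Probe set 1433662_s_at averaged 12.51 in 129 females and 13.19 in B6 females, a difference of -0.68 ± 0.152 with adjusted p = 0.0029, which lay at -0.48 with adjusted p = 0.064 after upper quartile centring. Probe set 1450040_at averaged 11.71 in 129 females and 12.56 in B6 females, a difference of -0.84 ± 0.243 with adjusted p = 0.017, which lay at -0.87 with adjusted p = 0.057 under the clone block and at -0.85 with adjusted p = 0.074 with the leading clone number as the block. Averaged over sex, 1433662_s_at averaged 12.90 in 129 and 13.21 in B6, a difference of -0.31 ± 0.103 (adjusted p = 0.028, and 0.17 after upper quartile centring), while 1460287_at was higher, at 13.15 in 129 and 12.46 in B6, by 0.69 ± 0.188 (adjusted p = 0.0078). These probe sets passed in opposite directions. With the leading clone number as the block neither passed averaged over sex, at -0.34 (adjusted p = 0.094) and 0.64 (adjusted p = 0.079). Without 129 male clones 3(1) and 5(1), 1460287_at lay at 0.47 with adjusted p = 0.067. The probe set with the highest mean, 1454677_at, passed in no strain comparison.

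A further pair of Timp2 probe sets, 1420924_at and 1437081_at, was above background in some clones and not in others. Over the 8 arrays of 129 females 1420924_at ran from 2.12 to 2.79 and 1437081_at from 1.96 to 2.52, below background throughout. In B6 females 1420924_at was 6.46 (clone 1(4)), 5.75 (3(3)), 5.45 (4(5)) and 2.07 (6(3)) with Cdca7l, and 5.60 (3(3)), 5.23 (4(5)), 3.02 (2.1(1)), 2.15 (6(3)) and 2.09 (5.1(1)) with vector. Clones 3(3) and 4(5) were above background with both plasmids, and clone 6(3) was below it with both. In 129 males clones 5(1) and 3(1) had 7.26 and 6.51 with Cdca7l and 5.26 and 4.90 with vector, and of the other 6 arrays 1 exceeded background, clone 3(3) with vector at 4.68. Neither probe set passed a comparison.

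Sex differences of these genes were seen in 129 cells. Averaged over strain, 0 of 20 probe sets passed, 17 were higher in males and 7 had an unadjusted p under 0.05, beside 0.321% of all probe sets called. The nearest were Mmp14 1440920_at, at 7.97 in males and 6.56 in females (difference 1.41 ± 0.34, adjusted p = 0.058), and Timp2 1433662_s_at, at 13.25 in males and 12.85 in females (0.41 ± 0.103, adjusted p = 0.073). In 129 cells 8 of the 20 passed, all higher in males, beside 8.77% of all probe sets. The 8 were Mmp14 1440920_at, 3 probe sets of Timp2 and all 4 of Timp3. In 129, 19 of 20 were higher in males, with a median of 0.74 beside 0.08 over all probe sets. In B6 cells 0 of 20 passed, 9 of 20 were higher in males, and 0.0352% of all probe sets were called (962 unadjusted). The B6 females here include vector 5.1(1), the array with low Xist and high Eif2s3y. Without it and 129 female vector 1(3), 0 of 20 passed in B6 and averaged over strain, beside 0.0626% and 1.02% of all probe sets.

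Timp3 1419089_at was 13.68, 13.43, 13.33, 12.98 and 12.85 with Cdca7l and 13.49, 13.47, 13.38, 13.24 and 13.19 with vector in 129 males. In 129 females it was 12.88, 12.67, 12.63 and 12.56 with Cdca7l and 12.81, 12.69, 12.62 and 12.04 with vector. The male and female ranges touched at 1 point only, where male clone 1(4) with Cdca7l (12.85) lay below female clone 2(3) with Cdca7l (12.88). It averaged 13.30 in males and 12.61 in females, a difference of 0.69 ± 0.114, 1.61-fold, with adjusted p = 0.00077 (limma). The other Timp3 probe sets were higher in males by 0.57 ± 0.102 (1449335_at, adjusted p = 0.0020), 0.67 ± 0.193 (1449334_at, adjusted p = 0.030) and 0.79 ± 0.24 (1419088_at, adjusted p = 0.038).

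Timp2 was higher in 129 males by 0.78 ± 0.148 for 1433662_s_at (adjusted p = 0.0031), 1.05 ± 0.237 for 1450040_at (adjusted p = 0.010) and 0.35 ± 0.0999 for 1454677_at (adjusted p = 0.030). Probe set 1433662_s_at was 12.71 to 13.81 in 129 males, with a median of 13.21, and 12.17 to 12.90 in 129 females, with a median of 12.45. Mmp14 1440920_at averaged 7.76 in 129 males and 5.26 in 129 females, a difference of 2.49 ± 0.487, 5.64-fold, with adjusted p = 0.0040. For each of the 8 probe sets the male and female ranges overlapped.

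Several of these calls were lost under other settings. After upper quartile centring, which lowered every difference in this comparison by 0.18, 4 of the 8 passed: Timp3 1419089_at (adjusted p = 0.013), Timp2 1433662_s_at (0.035) and 1450040_at (0.030) and Mmp14 1440920_at (0.0048). Under the clone block 4 of the 8 passed, beside 0.645% of all probe sets: Timp3 1419089_at (adjusted p = 0.010) and 1449335_at (0.021), Timp2 1433662_s_at (0.033) and Mmp14 1440920_at (0.033). With the leading clone number as the block none passed, and Timp3 1419089_at was nearest at 0.68 with adjusted p = 0.066. Without 129 male clones 3(1) and 5(1), 2 of the 20 passed, beside 0.844% of all probe sets, both of Timp3: 1419089_at at 0.55 (adjusted p = 0.032) and 1449335_at at 0.45 (adjusted p = 0.049). Mmp14 1440920_at lay at 2.22 with adjusted p = 0.055 without them, and at 0.70 with adjusted p = 0.092 with array weights by the gene-by-gene method. Beside these genes, 9 of 9 tested fibroblast and meningeal markers were higher in 129 males, with a median of 2.38 and 1 past the threshold. Of these markers, Lum was above background on 129 male arrays alone. Without the 2 clones 6 of 9 were higher, with a median of 0.25 and 0 past the threshold. Astrocyte markers were higher in 129 males for 7 of 9 tested, with a median of 0.93 and Slc1a3 past the threshold (1.32 ± 0.423, adjusted p = 0.047), and without the 2 clones the median was 1.03 and none passed. Of 5 tested ependymal and choroid plexus markers 4 were higher, with Foxj1 past the threshold (2.82 ± 0.85, adjusted p = 0.037), and none passed without the 2 clones. The part of these cells in the sex differences was not tested.

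The sex difference was not shown to depend on strain. For the sex by strain term 0 of 20 probe sets passed, and 0% of all probe sets were called (3917 unadjusted). Of the 20, 11 had an unadjusted p under 0.05 and 19 were positive, which means a larger male minus female difference in 129. Timp3 1419089_at had the smallest p, at 0.80 ± 0.159 with adjusted p = 0.070, and Timp3 1449335_at followed at 0.59 ± 0.142 with adjusted p = 0.099.

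**Figure D4:**
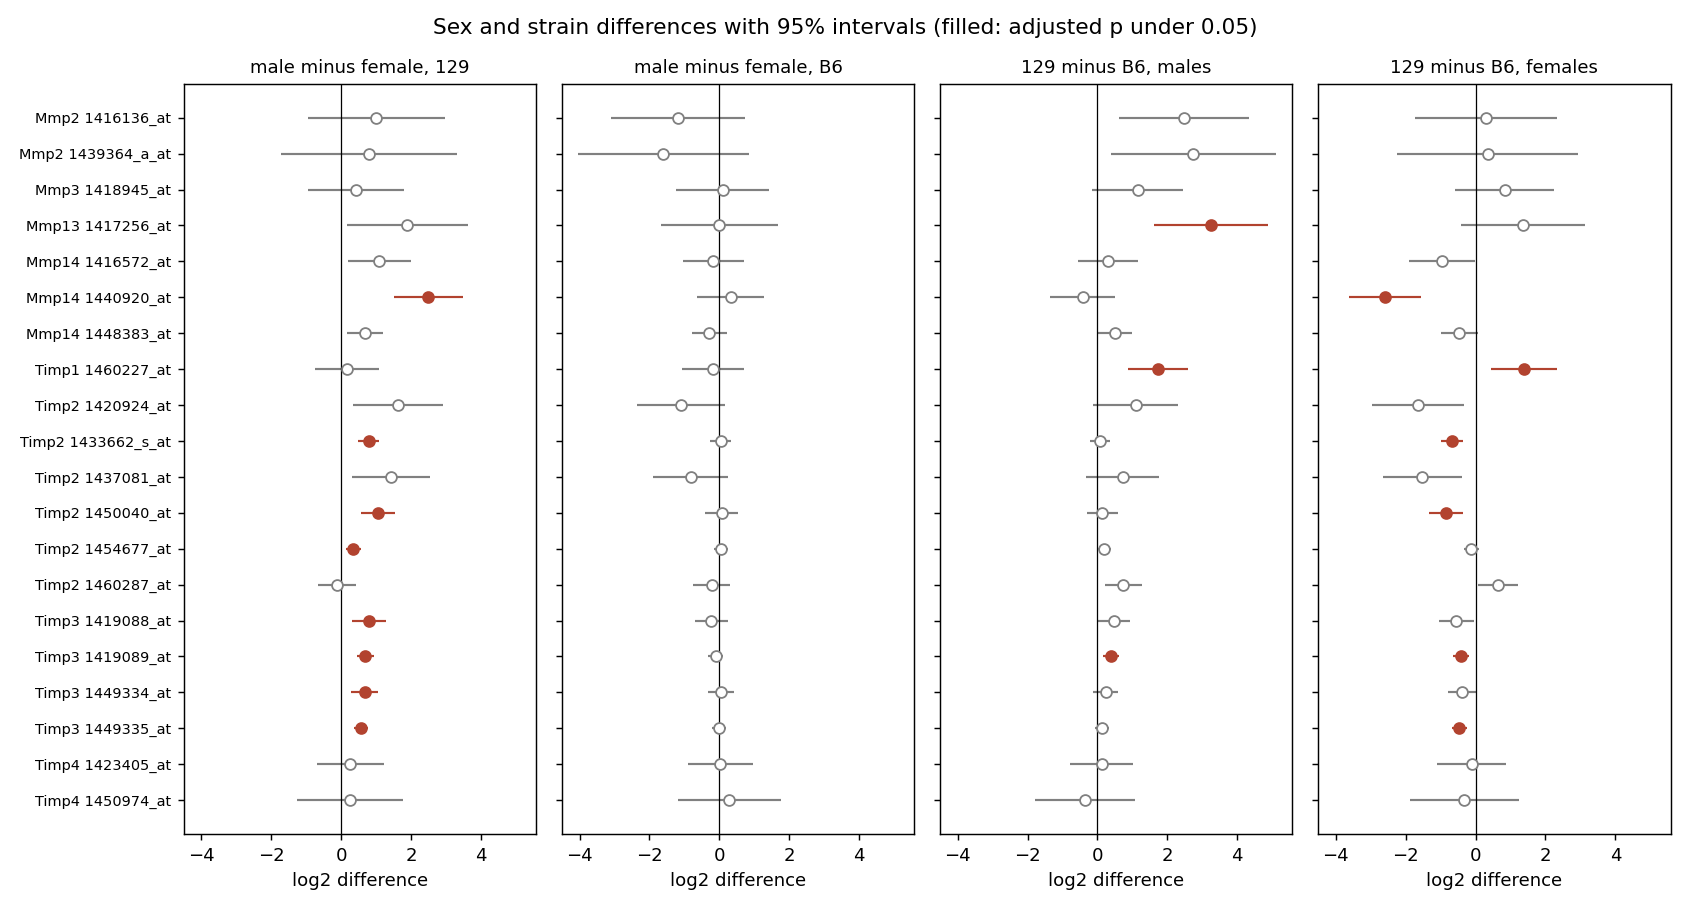
Log2 differences with 95% intervals for the 20 tested probe sets (rows): male minus female in 129 and in B6, and 129 minus B6 in males and in females (panels); filled points passed at an adjusted p under 0.05. In 129 the 8 filled points of the sex panel all lie to the right, at 0.35 to 2.49, while none is filled in B6.

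Timp4 was the inhibitor with no call in any comparison. Probe set 1423405_at was 11.30, 11.22, 10.61, 10.45 and 10.28 with Cdca7l and 11.86, 11.51, 11.47, 10.90 and 10.71 with vector in 129 males, and 11.76, 11.43, 10.29 and 8.58 with Cdca7l and 12.05, 11.28, 11.11 and 9.69 with vector in 129 females. In B6 males it was 11.77, 11.22, 10.96, 10.32 and 9.04 with Cdca7l and 12.34, 11.98, 11.97, 11.34 and 8.14 with vector. Clone 4(3) was the lowest of B6 males with both plasmids. In B6 females it ran from 10.64 to 11.45 with Cdca7l and from 9.71 to 11.93 with vector. Over 129 it averaged 10.92 ± 0.852 (SD, n = 18), and over B6 10.89 ± 1.06 (SD, n = 19).

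Of 18 other metalloproteinases, 13 had a probe set and 8 were tested. Mmp10, a stromelysin that neighbours Mmp3 and Mmp13 on chromosome 9, was above background on 13 of 18 arrays in 129, with a median of 7.74, and on 2 of 19 in B6, with a median of 2.22. It averaged 6.77 in 129 and 2.63 in B6, a difference of 4.14 ± 0.855 between measured values (adjusted p = 0.00073), of which the B6 mean lies below the background level. On the 4 arrays of 129 male clones 3(1) and 5(1) it was 9.79 to 11.11. Of the other genes of that run, Mmp12 was above background on 4 of 18 and 4 of 19 arrays, and Mmp1a, Mmp1b, Mmp7, Mmp8 and Mmp20 on none. Mmp17, which is tied to the membrane by a lipid anchor, averaged 4.06 in 129 and 5.66 in B6, a difference of -1.60 ± 0.314 with adjusted p = 0.00041. Mmp19 was higher in 129 males than in 129 females by 1.14 ± 0.325 (adjusted p = 0.029) and lower in 129 females than in B6 females (-1.13 ± 0.334, adjusted p = 0.020). Mmp23 was higher in 129 males than in B6 males by 1.74 ± 0.516 (adjusted p = 0.027), with 5 of 10 and 1 of 10 arrays above background. When 129 male clones 3(1) and 5(1) were left out, Mmp10 and Mmp17 passed in the averaged strain comparison, and none of the 8 genes passed between the sexes in 129 or between strains in males. Mmp11, Mmp16 and Mmp24 passed in no strain or sex comparison.

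The plasminogen system holds proteases that activate metalloproteinase precursors. Of 18 genes listed for this system, for other activators and for other inhibitors, 14 were tested. Averaged over sex, 4 were higher in 129 and none lower, beside 25.2% of all probe sets called. They were Serpinb2, an inhibitor of plasminogen activators, by 2.49 ± 0.526 in measured values (above background on 13 of 18 arrays in 129 and 1 of 19 in B6), Plaur, the urokinase receptor, by 2.59 ± 0.573, Plat, tissue plasminogen activator, by 1.02 ± 0.261, and Tfpi2, a matrix-associated protease inhibitor, which was not above background on any B6 array, at least 1.04-fold. The list's median was -0.05. Plau, urokinase itself, and Plg, plasminogen, were above background on 0 arrays and were not tested. Tfpi2 entered the tested set through 129 arrays alone. Plaur was higher in 129 females too, by 2.63 ± 0.844, where Pcsk5, a proprotein convertase, was lower (-1.91 ± 0.678). In 129, males had higher Thbs2 (1.94 ± 0.529), a matricellular protein, and Lrp1 (0.73 ± 0.231), a receptor that clears proteases, and lower Pcsk6 (-1.65 ± 0.533). Without 129 male clones 3(1) and 5(1), Plaur, Plat and Serpinb2 passed in the averaged strain comparison and none of the 14 between the sexes in 129.

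Among the ADAM and ADAMTS proteases 13 of 15 were tested. Averaged over sex, 3 were higher in 129 and none lower, beside 25.2% of all probe sets: Adamts15 by 1.34 ± 0.387 and Adamts4 by 0.92 ± 0.282, which both cut proteoglycans, and Adam8 by 0.79 ± 0.27. In males alone 4 were higher in 129, beside 10.5% of all probe sets, among them Adam19 by 2.97 ± 0.879. Another of the 4, Adamts12, entered the tested set through 129 male arrays alone, above background on 4 of 10 there. Its strain test is not support separate from that filter. In 129 Adamts15 was higher in males by 2.48 ± 0.556. Without the 2 clones Adam8 was the 1 call in each of the strain comparisons that include males, and none passed between the sexes.

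Of the matrix proteins that these enzymes cut, 13 of 15 were tested, and 6 were higher and 2 lower in 129 when averaged over sex, beside 25.2% of all probe sets. Higher were Col3a1, which was not above background on any B6 array, at least 26.2-fold, Col1a2 by 2.75 ± 0.452 and Col1a1 by 3.02 ± 0.616, and Bcan, the brain proteoglycan brevican, was lower, with a difference of -2.08 ± 0.493. These collagens and Dcn also belong to the fibroblast and meningeal markers, of which 9 of 9 tested were higher in 129, with 6 past the threshold. Like Mmp13, Col3a1 and the markers Lum and Aldh1a2 entered the tested set through 129 arrays alone, so their strain differences are not support separate from that filter. Without 129 male clones 3(1) and 5(1), Col1a1, Col1a2, Col3a1 and Col4a2 were still higher in 129 and Bcan lower. Of the 9 fibroblast and meningeal markers, 8 were higher in 129 without these clones, with 3 past the threshold.

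Of 13 genes for known inducers and their factors, 9 were tested, and 3 were higher and 2 lower in 129 averaged over sex, beside 25.2% of all probe sets. Il6, a cytokine, was higher by 2.20 ± 0.692, Ets1 by 0.87 ± 0.28 and Fosl1, a part of AP-1, by 2.16 ± 0.715 (adjusted p = 0.026), while Fos, also a part of AP-1, was lower (-1.80 ± 0.401), as was Stat3 (-0.68 ± 0.191). Fos averaged 11.20 in 129 and 13.003 in B6. Without the 2 clones Fos and Stat3 were still lower, and none of the 9 passed as higher. No gene of the 5 lists passed in a Cdca7l comparison.

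The genes whose levels followed each member most closely over the 37 arrays were found by Pearson correlation, which is given as a description; the arrays share clones and strains. For Mmp13 they were Tbx20 (r = 0.960), Rftn1 (0.949) and Siglecg (0.948), values that rest on the few arrays where Mmp13 was above background. For Mmp2 they were Ahnak2 (0.914), Igf1 (0.867) and Tmem45a (0.853), and for Mmp14 Tmem150a (0.838), Gusb (0.836) and Dnajc10 (0.817). Mmp3 had lower values, led by Prorsd1 (0.729), Zmiz1 (0.720) and Irgm1 (0.684). Timp1 was followed by Hmga2 (0.890), Fbln2 (0.884) and Serpinb9b (0.880), Timp2 by Antxr1 (0.855), Pdgfrb (0.833) and Nudt4 (0.830), and Timp3 by Zmat3 (0.912), Map3k20 (0.858) and Axin2 (0.838). Timp4 was led by Grcc10 (0.712), Ak4 (0.703) and Fahd2a (0.692). Without 129 female vector 1(3), which had the lowest upper quartile, r lay between 0.692 and 0.959 for these genes. Ahnak2 followed Mmp2 as closely after the group means were removed (r = 0.914), and Hmga2 followed Timp1 less closely then (0.799).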

How the data were processed

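RNA of 37 cultures was measured on 37 one-colour arrays. The authors deposited log2 values for 45101 probe sets, made with GCRMA and Partek 6.5 per the submitters' processing notes (joint normalization of all arrays is not stated there), and they were used as deposited. Genes were named through the platform annotation, checked by Entrez ID against GRCm38.p6. Probe sets at or below 3.19, the median of the table, on all but 3 or fewer arrays (19458) and 64 controls were left out, and 25579 were tested. Precision is limited by how many arrays a group holds.

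One limma 3.58.1 fit (R 4.3.3) held every array, with 8 group means, 29 residual degrees of freedom, empirical Bayes moderation and Benjamini-Hochberg adjustment, for 14 comparisons; all adjusted p-values are limma's. The fit was tested on simulated data. No arrays held identical values, the highest correlation between arrays being 0.998.

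Each member was represented, where 1 value was needed, by its probe set with the highest mean. Per comparison every member probe set past an adjusted p under 0.05 was named, or the 2 with the smallest p where none passed. Of 5 lists, up to 4 genes past the threshold were named. The lists were other metalloproteinases, plasminogen system with other activators and inhibitors, ADAM and ADAMTS proteases, matrix substrates, and inducers. The 3 genes with the highest Pearson r to each member were also named. Clones and other single arrays were chosen after their values were seen. The members and lists were chosen with earlier results of these data known.

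Same-labelled Cdca7l and vector arrays deviated together from their group means in B6 females (r from 0.432 to 0.775, 3 pairs) and B6 males (0.376 to 0.572, 4 pairs), and not in every pair in 129 females (0.061 to 0.716) and 129 males (-0.0887 to 0.623). The main fit used no pairs. Alternatives were the variance prior, the filter, centring, array weights, blocks, leaving out each array in turn, and the compared groups or vector arrays alone; fits without 2 sets of arrays and with a second kind of array weights were added after seeing the data. Promoter motifs were searched and figures drawn in Python.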

Additional observations from a re-analysis of the deposited data

Results flagged for a closer look

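Over 153 checks of 1 probe set in 1 group of 4 or 5 arrays, 14 held an array far from the rest by Dixon's test; chance flags about 1 in 20 groups. Mmp2 was low in 129 female clone 1(3) with both plasmids: 1416136_at was 5.49 with Cdca7l, where the others lay at 8.47 to 8.67, and 5.76 with vector, where they lay at 8.75 to 8.99, and 1439364_a_at was 4.505 with Cdca7l, against 8.37 to 8.94.

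Timp2 was low in B6 female clone 6(3): 1433662_s_at was 12.63 with Cdca7l (others 13.29 to 13.36) and 12.90 with vector (others 13.22 to 13.35), and 1454677_at was 13.69 with Cdca7l (others 14.05 to 14.08). Timp2 was also apart on B6 male vector 2(4), with 1420924_at at 5.27 (others 2.80 to 3.07), and on B6 male Cdca7l 5(3), with 1460287_at at 11.91 (others 12.35 to 12.48).

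Mmp3 was 13.26 on the array labelled B6 female vector 5.1(1), which carried the male-specific Eif2s3y, against 9.42 to 10.33 on the others of that group. Mmp9 1416298_at was 9.95 on 129 male vector 5(2), against 2.80 to 4.26. Mmp14 1416572_at was 2.71 on 129 female vector 2(3), against 4.65 to 4.95, and Mmp14 1448383_at was 10.46 on 129 female Cdca7l 2(1), against 9.78 to 9.89. Timp4 1423405_at was 8.14 on B6 male vector 4(3), against 11.34 to 12.34, and Timp4 1450974_at was 5.25 on 129 male Cdca7l 3(1), against 4.43 to 4.56.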

How the results depend on the processing

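No fit without array weights called a metalloproteinase or TIMP in a Cdca7l comparison. With array weights by the gene-by-gene method 2 probe sets passed in 129 males, Mmp3 at -3.20 and Timp3 1449334_at at -0.67. That fit called 1589 of all 25579 probe sets there, against 0 in the main fit. With the same weights Mmp14 1440920_at reversed in 129 females to -0.43. A fixed replicate block reversed Timp2 1437081_at for Cdca7l in B6 females to -0.14. The causes were not tested.

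Counts of called member probe sets moved by more than 1.5 times as follows. Between the sexes, averaged, 2 passed with a trended and robust prior and 5 with either kind of array weights. Of all 25579 probe sets, that prior called 104, array weights 6437 and gene by gene 11621, against 82 in the main fit. Between the sexes in 129 (8 called), 4 passed with upper quartile centring, 4 with a random replicate block on the clone label, 0 with one on the leading clone number, 5 in the compared groups alone, 5 on vector arrays alone and 2 without 129 male clones 3(1) and 5(1). These settings called 2345, 165, 31, 1135, 357 and 216 of all probe sets in that order, against 2243 in the main fit. In B6, 1 passed with either kind of array weights, beside 460 and 999 of all probe sets, against 9 in the main fit. Between strains, averaged (5 called), array weights gave 9, gene by gene 10, and the block on the leading clone number 2. They called 12132, 14556 and 2574 of all 25579 probe sets, against 6456 in the main fit. Between strains in females (6 called), upper quartile centring, the block on the leading clone number and the compared groups alone gave 3 each. Array weights gave 10 and gene by gene 12. In that order these settings called 4968, 1665, 1702, 11576 and 15390 of all probe sets, against 4501 in the main fit. Between strains in males (3 called), that block and the fit without clones 3(1) and 5(1) gave 0 and vector arrays alone 1. They called 639, 912 and 616 of all probe sets, against 2682 in the main fit. For sex by strain, the trended prior gave 1 and either kind of array weights 9. They called 3, 6227 and 10375 of all probe sets, against 0 in the main fit. With each array left out in turn the counts ran from 0 to 4 for the averaged sex comparison, 5 to 8 for sex in 129, 5 to 10 for strain in females (10 without B6 female Cdca7l 6(3)), 3 to 5 for strain in males (5 without 129 male vector 3(2)) and 0 to 2 for sex by strain. Sex in 129 gave 5 without 129 female Cdca7l 2(1), 129 male Cdca7l 3(1), 129 male Cdca7l 5(1) or 129 male vector 5(1). The calls over all probe sets in these leave-one-out fits are not given here. The counts are therefore not read as changes particular to these genes. The default array weights stopped before convergence.

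Limits: groups of 4 or 5 clones, values near 3.19 that are not above background, clones shared by both plasmids (correlation within a clone label 0.409), and no culture or scan batch in the labels used here.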
